A study of Danio rerio with 24 samples.

Results

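The genes described here encode the glutathione, thioredoxin and Nrf2 defence of zebrafish embryos against electrophiles and peroxides. They were taken by name: every gene whose symbol in the authors' annotation begins with gst, gpx, prdx, txn, keap1, hmox or srxn, is sod1, sod2, sod3a or sod3b, or equals nfe2l2a, nfe2l2b, nqo1, gclc, gclm, gsr, gss or cat. This gave 64 of the 26347 genes in the count table, and 63 of the 64 were among the 20907 genes tested. The exception was gstk4, a kappa-class glutathione transferase gene with 81 counts in total over 16 libraries. By role, 4 were Nrf2 and Keap1 genes, 4 made or recycled glutathione, 18 were glutathione transferases, 6 were glutathione peroxidases and 7 were peroxiredoxins and sulfiredoxin. A further 16 were thioredoxins, their reductases and relatives, 5 were catalase and superoxide dismutases, and 4 were heme oxygenases and nqo1.

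Whole embryos of 4 groups were compared, with 4 libraries in each: WT without and with TCDD, called WT control and WT TCDD, and the mutant line likewise, called slincRosu3 control and slincRosu3 TCDD. The slincRosu3 line carries a mutation made with CRISPR-Cas9 in slincR, a long intergenic noncoding RNA next to the transcription factor gene sox9b. TCDD (2,3,7,8-tetrachlorodibenzo-p-dioxin) is a dioxin that activates the aryl hydrocarbon receptor (AHR). Exposure of both treated groups to 1 ng/mL of TCDD began at 6 hours post fertilization, and embryos were collected at 48 hours post fertilization. What the control embryos received in its place, the WT strain, and whether the numbered replicates were separate clutches or pools are not given in the labels, so p-values measure only the spread between these libraries. The 8 samples of a further line, BigD, were not analysed here.

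Nrf2 is a transcription factor that Keap1 holds in the cytoplasm and marks for degradation. Electrophiles and oxidants modify Keap1, Nrf2 then enters the nucleus, and genes with antioxidant response elements are transcribed, among them the glutathione transferase gene gstp1, the heme oxygenase gene hmox1a and the glutamate-cysteine ligase genes. Zebrafish have a pair of Nrf2 genes, of which nfe2l2a acts as the classical activator and nfe2l2b has been described in zebrafish embryos as a negative regulator, and a pair of Keap1 genes. Glutathione transferases conjugate glutathione to electrophiles, while glutathione peroxidases and the thioredoxin-peroxiredoxin system reduce peroxides.

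Total counts per library ran from 17275522 to 20100736, and the defence genes took 0.241% to 0.282% of them. Cyp1a, the cytochrome P450 gene that the AHR induces most, stood at 2.75 to 5.32 CPM in the 8 control libraries and at 856 to 1931 CPM in the 8 TCDD libraries, as the treatment labels say. WT control 4, slincRosu3 control 4, WT TCDD 3 and WT TCDD 4 had the highest scores on the first principal component, which held 29.8% of the variance. Their scores were 56.19, 53.42, 32.71 and 35.49, and WT control 1 came next at 18.06. At the other end, slincRosu3 control 2 and WT TCDD 2 lay as far from 0, at -39.96 and -35.35. The 4 highest are called the libraries that stood apart below, and were picked from these same data. CPM are counts brought to a common library size and scaled with TMM (a factor that makes libraries comparable), groups are given as mean ± SD over 4 libraries, and values of single libraries are in the order of replicates 1 to 4. In RNA of whole embryos, fewer cells of a type and less RNA per cell cannot be told apart.

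With TCDD, the Nrf2 gene nfe2l2b rose about 3-fold in WT and more than 3-fold in slincRosu3. In WT, 1 of 63 tested defence genes passed an adjusted p of 0.05 in edgeR's quasi-likelihood test (nfe2l2b, higher), where 0.325% of all genes tested did. In slincRosu3, 4 of 63 passed (nfe2l2b, gstp1 and hmox1a higher, gstm.3 lower), against 0.383% of all genes. For gstp1 and hmox1a, every TCDD library of WT was also above every WT control library, without a call (log2 0.44 and 0.47). Averaged over both lines, 4 of 63 passed (nfe2l2b, nfe2l2a, gstp1 and hmox1a, all higher), against 0.804% of all genes. The median log2 fold change with TCDD was 0.014 over the defence genes and 0.0073 over all genes in WT, and 0.064 and -0.0060 in slincRosu3. Log2 fold changes were above 0 for 34 of 63 defence genes in WT (54% against 51.6% of all genes) and for 41 of 63 in slincRosu3 (65.1% against 48.5%). Both averages reuse the libraries of the single-line comparisons and are no separate evidence.

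**Figure D1:**
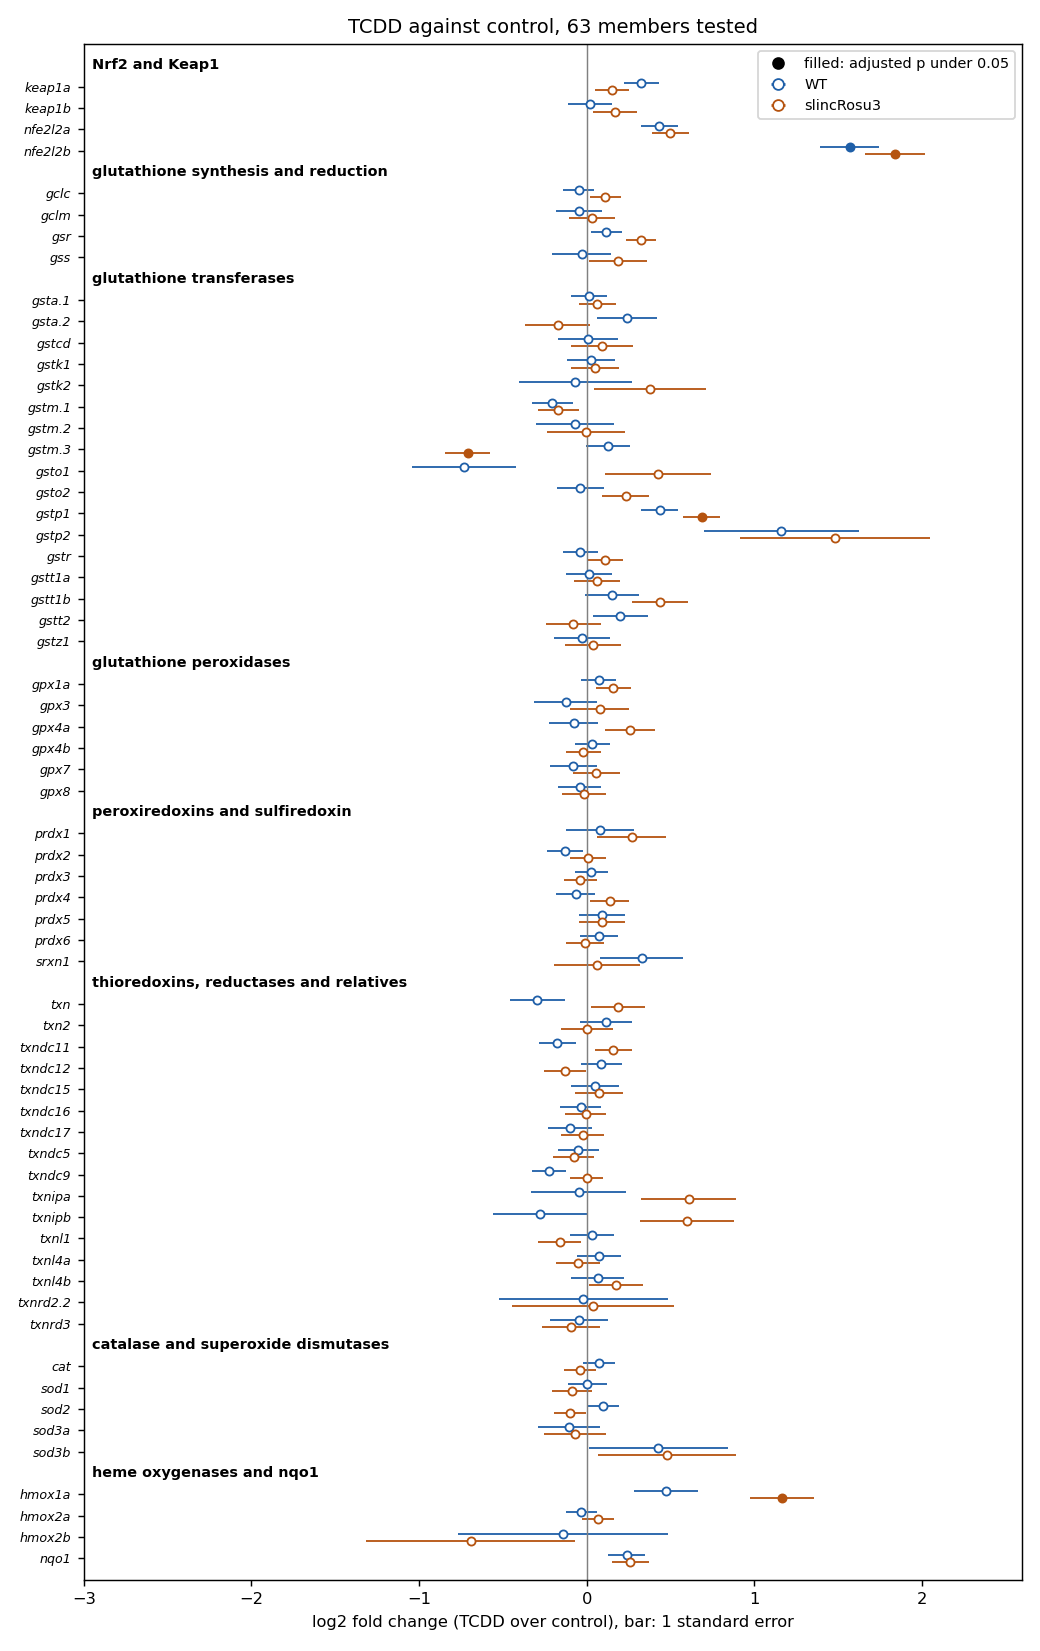
Log2 fold change of TCDD over control (horizontal axis) for the 63 defence genes tested, grouped by role, with WT in blue and slincRosu3 in orange; bars are 1 standard error and filled points passed an adjusted p of 0.05. The points of nfe2l2b lie farthest to the right among those filled, at 1.57 in WT and 1.84 in slincRosu3, and most other points lie near 0.

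Between the lines, the transferase genes gsta.2 and gstt1b were lower in slincRosu3 at both treatments, and the peroxidase gene gpx3 and the Nrf2 gene nfe2l2a were higher over both treatments. Without TCDD, 3 of 63 passed (gsta.2 and gstt1b lower in slincRosu3, gstm.3 higher), where 1.54% of all genes did. With TCDD, 3 of 63 passed (gsta.2 and gstt1b lower, gpx3 higher), against 1.86% of all genes. Averaged over both treatments, 5 of 63 passed (gsta.2 and gstt1b lower, gpx3, gstt1a and nfe2l2a higher), against 5.45% of all genes, which is close to the members' share. The members' median log2 fold change was -0.096 in control, where that of all genes was -0.0073, and 18 of 63 were above 0 (28.6% against 48.7% of all genes). With TCDD the medians were -0.0056 and -0.012, and 31 of 63 were above 0 (49.2% against 47.8%). The mutation and any other genetic difference between the lines cannot be told apart in this design.

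The calls were repeated without the 4 libraries that stood apart. This left only replicates 1 and 2 in WT TCDD, so added calls are no separate evidence. With TCDD, edgeR then called 2 members in WT (nfe2l2a added, of 327 genes in all) and 5 in slincRosu3 (txnipa added, of 170 genes). Between the lines it called 6 without TCDD (gpx3, gstt1a and keap1b added, of 604 genes) and 5 with TCDD (gstp1 and gstt1a added, of 697 genes).

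**Figure D2:**
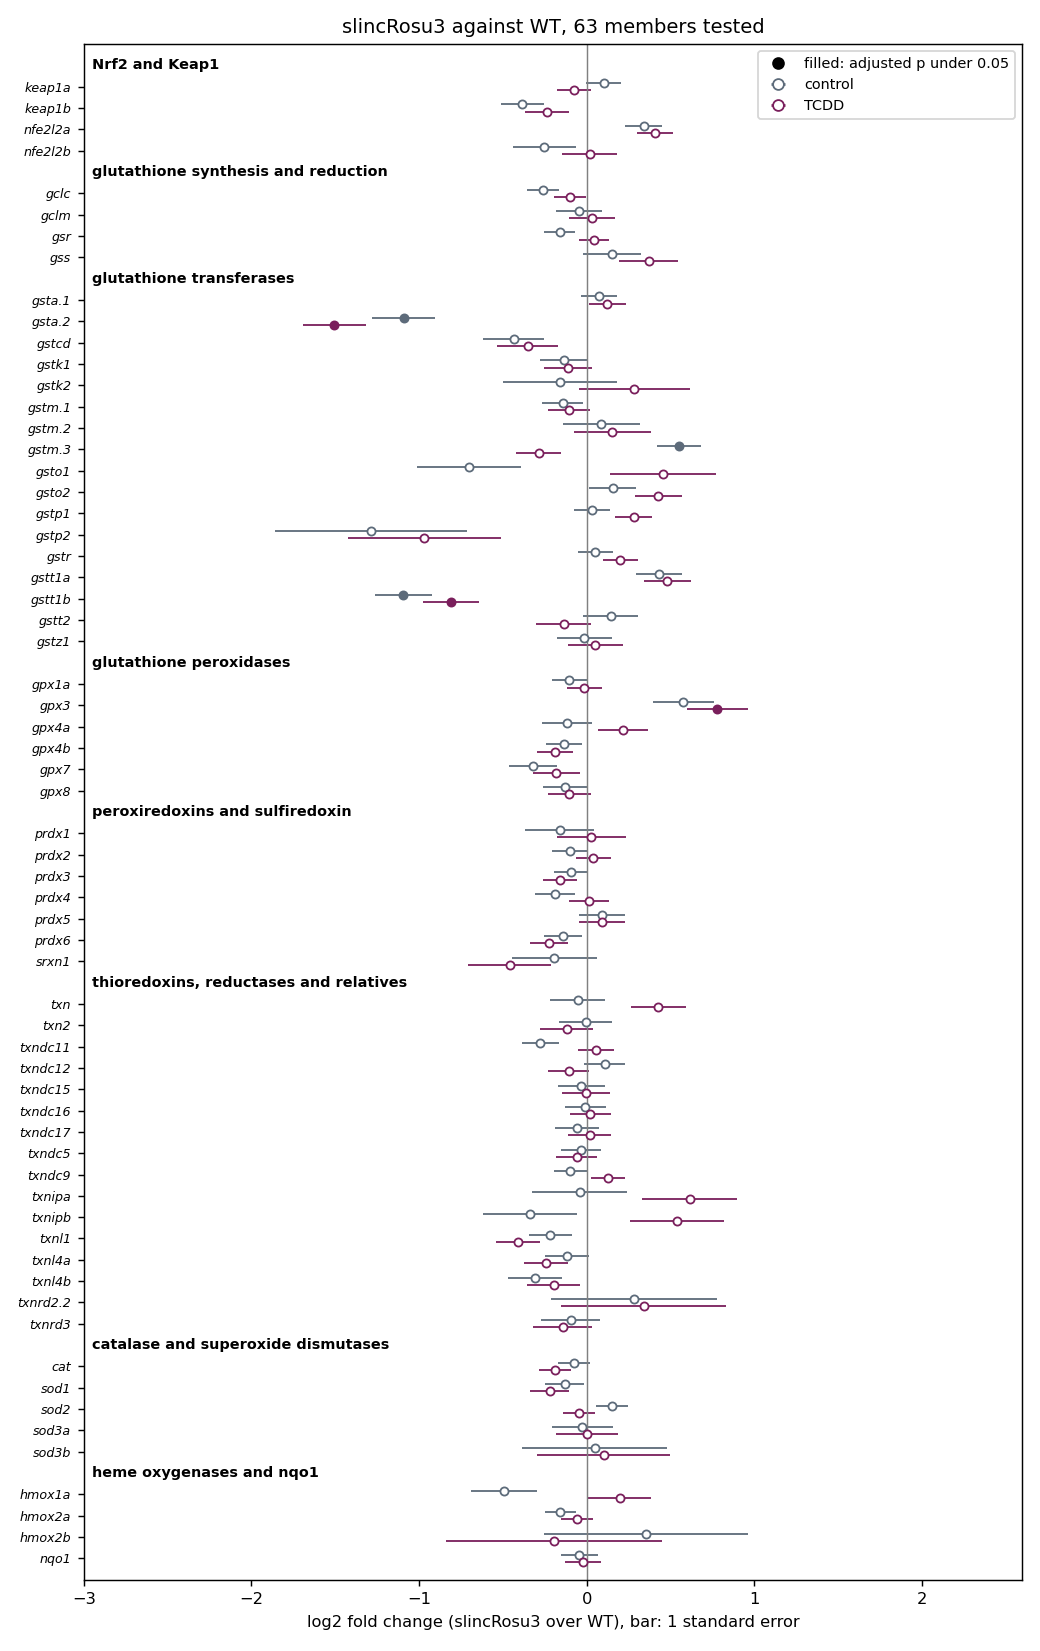
Log2 fold change of slincRosu3 over WT (horizontal axis) for the 63 defence genes tested, in control (grey) and with TCDD (purple); bars are 1 standard error and filled points passed an adjusted p of 0.05. Filled points of gsta.2 (-1.09 and -1.51) and gstt1b (-1.09 and -0.81) lie left of 0 at both treatments, while gstm.3 and gpx3 are filled at 1 treatment each, right of 0.

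Of the Nrf2 genes, nfe2l2b (ENSDARG00000089697) responded to TCDD in both lines from a low level. In WT its CPM were 2.08, 2.20, 1.77 and 2.80 in control and 7.63, 6.62, 5.48 and 6.46 with TCDD. In slincRosu3 they were 2.29, 1.51, 1.58 and 2.03 in control and 7.16, 7.27, 6.34 and 5.76 with TCDD. Every TCDD library of either line was above every control library, and the lines overlapped at each treatment. Nfe2l2b rose 2.97-fold in WT (log2 1.57, SE 0.176, edgeR adjusted p = 0.000113) and 3.58-fold in slincRosu3 (log2 1.84, SE 0.179, edgeR adjusted p = 1.22e-05).

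Nfe2l2a (ENSDARG00000042824), the activating Nrf2 gene, moved less with TCDD and also differed by line. In WT its CPM were 36.4, 44.6, 49.2 and 40.2 in control and 61.0, 62.7, 50.1 and 56.3 with TCDD. In slincRosu3 they were 59.4, 54.9, 56.5 and 45.2 in control and 83.4, 71.2, 78.8 and 72.1 with TCDD. Within each line every TCDD library lay above every control library, and all slincRosu3 TCDD libraries lay above all WT TCDD libraries. Neither line alone passed (log2 0.43, edgeR adjusted p = 0.163 in WT; log2 0.50, edgeR adjusted p = 0.0606 in slincRosu3). Over both lines nfe2l2a rose 1.38-fold with TCDD (log2 0.47, SE 0.0776, edgeR adjusted p = 0.00388). Over both treatments it was 1.30-fold higher in slincRosu3 (log2 0.37, edgeR adjusted p = 0.00713). The call in slincRosu3 was gained with DESeq2 (adjusted p = 0.00516) and, in edgeR, without WT control 1 or WT TCDD 3 (edgeR adjusted p down to 0.0399). That in WT was gained without the 4 libraries that stood apart (edgeR adjusted p = 0.0416). This kept only replicates 1 and 2 of WT TCDD, which had the highest nfe2l2a of that group.

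**Figure D3:**
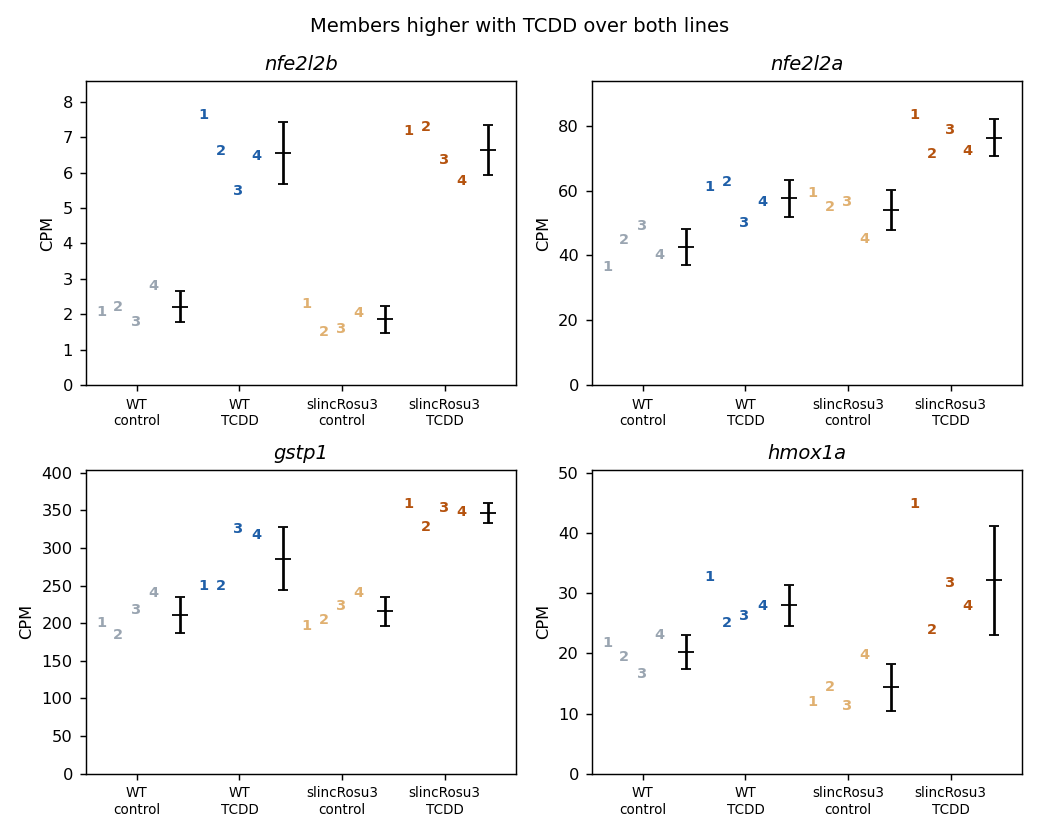
CPM (vertical axis, from 0) of the 4 defence genes that were higher with TCDD over both lines, by group; digits are the replicate numbers of single libraries, and the black bars are mean ± SD over 4 libraries. For nfe2l2b the control libraries sit between 1.51 and 2.80 CPM and the TCDD libraries between 5.48 and 7.63 CPM, while for hmox1a slincRosu3 TCDD 1 stands highest at 44.9 CPM.

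The Keap1 genes, whose products restrain Nrf2, did not pass in any contrast of the edgeR fit by group alone with all 16 libraries. Keap1a (ENSDARG00000016132) had 8.75, 10.6, 8.84 and 9.83 CPM in WT control and 11.93 ± 1.103 CPM in WT TCDD, with 10.2 ± 0.516 and 11.3 ± 0.454 CPM in slincRosu3 control and TCDD. Its WT groups overlapped only between WT control 2 and WT TCDD 1 (log2 0.33, edgeR adjusted p = 0.356). Keap1b (ENSDARG00000074634) had 38.1 ± 3.32 CPM in WT control, 38.6 ± 7.81 in WT TCDD, 29.3 ± 4.75 in slincRosu3 control and 32.8 ± 0.941 in slincRosu3 TCDD. Its log2 difference between the lines was -0.31 over both treatments, at an edgeR adjusted p of 0.063. DESeq2, and edgeR with the replicate number as a block, called keap1b in that comparison.

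The genes that make glutathione gave no call with TCDD or between the lines. Gclc (ENSDARG00000013095), the catalytic subunit of the rate-limiting glutamate-cysteine ligase, had 36.9 ± 4.31, 35.7 ± 2.80, 30.8 ± 1.96 and 33.3 ± 2.36 CPM in WT control and TCDD, then slincRosu3 control and TCDD. All 4 slincRosu3 control libraries (28.2 to 32.3 CPM) were below all WT control libraries (33.9 to 43.1 CPM), at a log2 difference of -0.26 and an edgeR adjusted p of 0.258. Its modifier subunit gclm (ENSDARG00000018953) had 16.04 ± 3.09, 15.5 ± 1.74, 15.6 ± 2.38 and 15.9 ± 0.639 CPM in the same order of groups. Glutathione synthetase, gss (ENSDARG00000037706), had 3.72 ± 0.750, 3.64 ± 0.345, 4.13 ± 0.732 and 4.71 ± 0.641 CPM. The groups of both genes overlapped in every pairwise comparison. Gsr (ENSDARG00000019236), the reductase that returns oxidised glutathione to its reduced form, had 18.1, 21.1, 20.4 and 19.8 CPM in slincRosu3 control and 24.2, 25.5, 25.2 and 24.6 CPM in slincRosu3 TCDD. These groups did not overlap, but the test did not pass (log2 0.33, SE 0.0904, edgeR adjusted p = 0.243), and in WT the log2 difference was 0.12 (edgeR adjusted p = 0.799).

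Among the 17 glutathione transferases tested, 1 rose and 1 fell with TCDD in slincRosu3, and none passed in WT, where 3 had an unadjusted edgeR p under 0.05 and DESeq2 called 1, gstp1. The family's log2 fold changes with TCDD ran from -0.73 to 1.16 in WT, with a median of 0.014, and from -0.71 to 1.48 in slincRosu3, with a median of 0.064. The gst genes include close copies: in the RefSeq gene table of the assembly GRCz12tu the 3 genes gstm.1, gstm.2 and gstm.3 are direct neighbours, as are gsto1 and gsto2, and 1 gene lies between gsta.1 and gsta.2. Gstk1 and gstk4 are direct neighbours too, gstp1 and gstp2 were not matched there, and no gstt gene lay next to another. How the counting treated reads shared by copies is not stated, so levels of the gsta, gstk, gstm, gsto, gstp and gstt genes are uncertain. The other 10 transferases tested, gsta.1, gstcd, gstk1, gstk2, gstm.1, gstm.2, gsto2, gstr, gstt2 and gstz1, gave no call in any contrast.

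Gstp1 (ENSDARG00000104068), a pi-class transferase and a standard reporter of Nrf2 activity in zebrafish, had 201, 185, 218 and 240 CPM in WT control and 250, 249, 326 and 318 CPM in WT TCDD. In slincRosu3 it had 196, 204, 223 and 240 CPM in control and 359, 328, 353 and 347 CPM with TCDD. In both lines the treated libraries lay above the controls, by little in WT TCDD 1 and 2. Every slincRosu3 TCDD library was above every WT TCDD library, but the nearest had 328 and 326 CPM. Edger with all 16 libraries gave no call for gstp1 between the lines with TCDD. Gstp1 rose 1.61-fold with TCDD in slincRosu3 (log2 0.69, edgeR adjusted p = 0.00496) and 1.48-fold over both lines (log2 0.56, edgeR adjusted p = 0.000562). In WT alone it did not pass in edgeR (log2 0.44, SE 0.11, adjusted p = 0.156), but passed in DESeq2 (adjusted p = 0.0232). Gstp2 (ENSDARG00000103019) was barely detected: 0.168, 0.732, 0.832 and 0.809 CPM in WT control and 1.73, 1.29, 1.18 and 1.52 CPM in WT TCDD. In slincRosu3 it had 0.106, 0.104, 0.421 and 0.405 CPM in control and 0.955, 0.386, 1.30 and 0.277 CPM with TCDD, so its groups separated in WT and overlapped in slincRosu3. Its log2 fold changes, 1.16 in WT and 1.48 in slincRosu3, did not pass (edgeR adjusted p = 0.537 and 0.728). Over both lines DESeq2 called gstp2, where edgeR did not (log2 1.32, edgeR adjusted p = 0.153).

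Gstm.3 (ENSDARG00000088116), a mu-class transferase, was higher in slincRosu3 control than in any other group. It had 11.5, 9.20, 9.62 and 8.15 CPM in WT control, 8.82, 10.4, 10.96 and 11.9 CPM in WT TCDD, 16.3, 14.0, 13.6 and 12.6 CPM in slincRosu3 control, and 7.76, 7.93, 8.67 and 10.1 CPM in slincRosu3 TCDD. The 4 slincRosu3 control libraries were above the other 12, whose groups overlapped. With TCDD it fell 1.64-fold in slincRosu3 (log2 -0.71, SE 0.133, edgeR adjusted p = 0.0187), and without TCDD it was 1.46-fold higher in slincRosu3 than in WT (log2 0.55, edgeR adjusted p = 0.0454). Neither call was stable when single libraries were left out: the first was lost without replicate 1, 2 or 3 of slincRosu3 control or of slincRosu3 TCDD (edgeR adjusted p up to 0.105). The second was lost on leaving out any 1 of 11 of the 16 libraries, and kept without WT control 1, WT TCDD 1 or 4, slincRosu3 control 4 or slincRosu3 TCDD 4. The second was also lost with no filter on low counts, with the replicate block and with only the compared groups (edgeR adjusted p up to 0.148). The summed CPM of 7 myeloid marker genes (of 8 listed, all 7 detected in 16 of 16 libraries) was likewise highest in slincRosu3 control, at 53.8 to 58.4, against 47.4 to 51.8 in slincRosu3 TCDD, 45.0 to 50.04 in WT control and 39.7 to 49.3 in WT TCDD. Their part in the result was not tested.

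Gsta.2 (ENSDARG00000039832), an alpha-class transferase, was lower in slincRosu3 at both treatments. It had 12.9, 12.9, 11.7 and 18.5 CPM in WT control and 15.9, 12.1, 19.7 and 18.4 CPM in WT TCDD. In slincRosu3 it had 6.43, 5.68, 7.53 and 6.54 CPM in control and 5.07, 6.23, 4.44 and 7.48 CPM with TCDD. All 8 slincRosu3 libraries were below all 8 WT libraries. It was 2.13-fold lower in slincRosu3 without TCDD (log2 -1.09, SE 0.187, edgeR adjusted p = 0.0050) and 2.84-fold lower with it (log2 -1.51, SE 0.189, edgeR adjusted p = 0.000433). Its near neighbour gsta.1 (ENSDARG00000090228), shown for contrast after its values were seen, had group means of 34.03, 34.3, 35.8 and 37.4 CPM in WT control and TCDD, then slincRosu3 control and TCDD.

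Of the 3 theta-class genes, gstt1b was lower and gstt1a higher in slincRosu3 over both treatments, and gstt2 did not pass. Gstt1b (ENSDARG00000017388) had 16.3, 16.9, 16.7 and 15.2 CPM in WT control and 17.8, 18.8, 17.9 and 17.9 CPM in WT TCDD. The mutant line had 5.58, 8.55, 8.53 and 7.81 CPM in control and 8.30, 7.38, 13.5 and 12.1 CPM with TCDD. Every slincRosu3 library was below every WT library, with slincRosu3 TCDD 3 and 4 nearest to them. It was 2.13-fold lower without TCDD (log2 -1.09, edgeR adjusted p = 0.0023) and 1.75-fold lower with TCDD (log2 -0.81, edgeR adjusted p = 0.0168), and the second call was lost without slincRosu3 TCDD 1 or 2 (edgeR adjusted p up to 0.0719). Gstt1a (ENSDARG00000042428) lay the other way: 30.4, 34.8, 34.4 and 51.5 CPM in WT control, 41.5, 32.3, 38.8 and 39.7 in WT TCDD, 48.9, 47.2, 46.6 and 61.0 in slincRosu3 control, and 53.2, 53.3, 50.4 and 55.8 in slincRosu3 TCDD. Apart from WT control 4, all WT libraries were below all slincRosu3 libraries. Gstt1a was 1.37-fold higher in slincRosu3 over both treatments (log2 0.46, edgeR adjusted p = 0.00875). In the main edgeR fit it passed at neither treatment alone (edgeR adjusted p = 0.168 in control and 0.0906 with TCDD). With TCDD it was called by DESeq2 and, in edgeR, with the replicate block, with only the compared groups and without the 4 libraries that stood apart. DESeq2 size factors or no filter on low counts gave no call there. In control it was called only without those 4 libraries.

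Gsto1 (ENSDARG00000022183), an omega-class gene that also reduces dehydroascorbate in mammals, had the lowest log2 fold change with TCDD in WT, -0.73 (edgeR adjusted p = 0.558). It had 1.23, 0.941, 0.832 and 0.871 CPM in WT control and 0.487, 0.724, 0.322 and 0.787 CPM in WT TCDD, so those groups did not overlap at this low level. In slincRosu3 its means were 0.595 ± 0.148 CPM in control and 0.801 ± 0.226 CPM with TCDD, with overlapping groups.

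**Figure D4:**
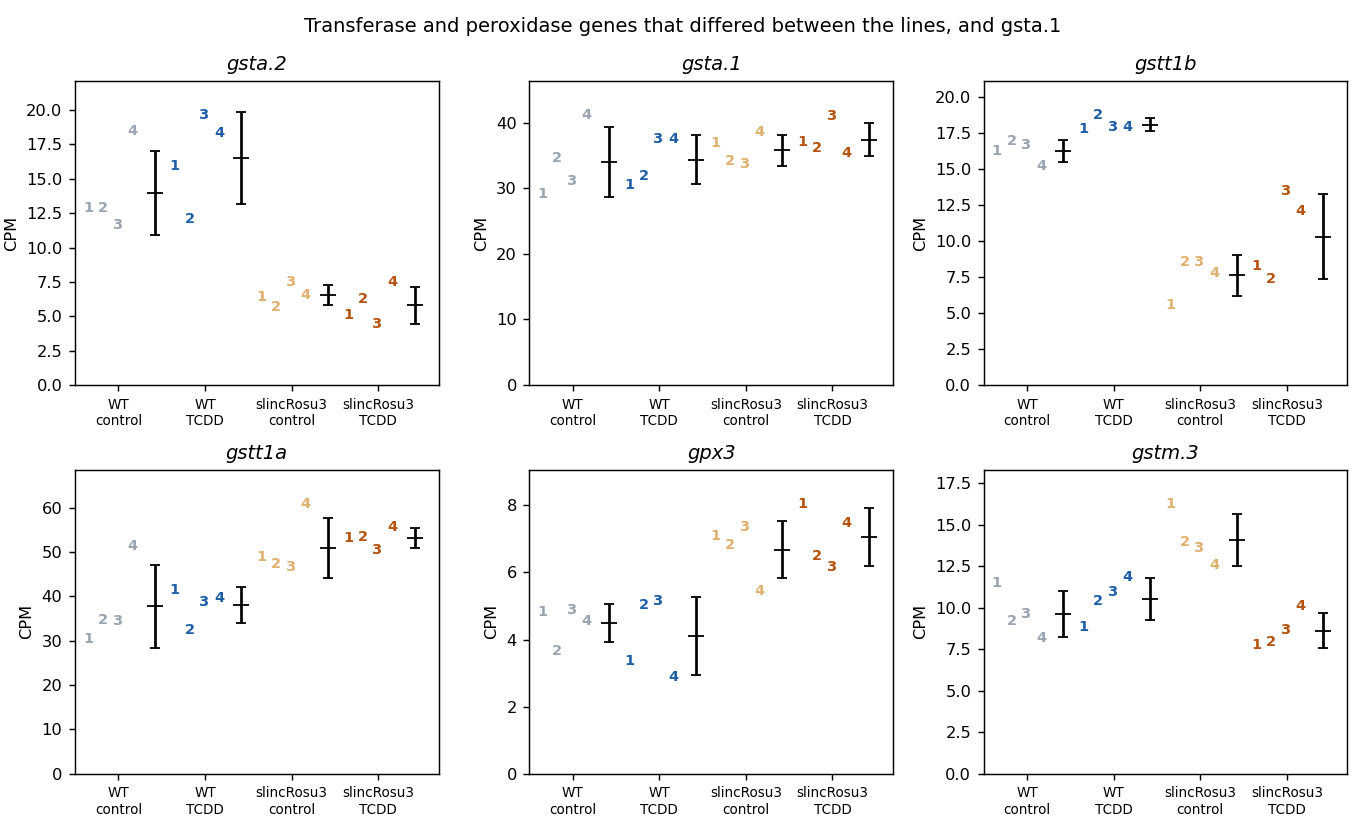
CPM (vertical axes, from 0) of 5 transferase and peroxidase genes that differed between the lines in at least 1 contrast, and of gsta.1, by group; digits are the replicate numbers of single libraries and black bars are mean ± SD over 4 libraries. All slincRosu3 libraries of gsta.2 (4.44 to 7.53 CPM) and gstt1b (5.58 to 13.5 CPM) lie below all WT libraries, and those of gpx3 (5.44 to 8.06 CPM) lie above them.

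Of the 6 glutathione peroxidases, gpx3 alone passed in edgeR, between the lines; gpx1a, gpx4a, gpx4b, gpx7 and gpx8 gave no call in any contrast. Gpx3 (ENSDARG00000043342), the secreted plasma form in mammals, had 4.82, 3.66, 4.89 and 4.54 CPM in WT control and 3.36, 5.02, 5.16 and 2.89 CPM in WT TCDD. In slincRosu3 it had 7.07, 6.83, 7.37 and 5.44 CPM in control and 8.06, 6.50, 6.18 and 7.48 CPM with TCDD. All slincRosu3 libraries were above all WT libraries. It was 1.72-fold higher in slincRosu3 with TCDD (log2 0.78, edgeR adjusted p = 0.0351) and 1.60-fold higher over both treatments (log2 0.68, edgeR adjusted p = 0.00384). Without TCDD it did not pass (log2 0.58, edgeR adjusted p = 0.163), and the call with TCDD was lost without WT TCDD 1 or 4 or any slincRosu3 TCDD library (edgeR adjusted p up to 0.123). It was also lost when only the compared groups were fitted (edgeR adjusted p = 0.0725). With TCDD against control, the 6 peroxidases had log2 fold changes of -0.13 to 0.07 in WT and -0.02 to 0.26 in slincRosu3, with no call and no unadjusted edgeR p under 0.05. DESeq2 called 0 of the 6 in either line.

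Peroxiredoxins, which reduce hydrogen peroxide with electrons from thioredoxin, and srxn1, the sulfiredoxin that repairs over-oxidised peroxiredoxins, gave no call in any contrast (prdx1 to prdx6 and srxn1). Their 7 log2 fold changes with TCDD ran from -0.13 to 0.33 in WT and from -0.04 to 0.27 in slincRosu3. None had an unadjusted edgeR p under 0.05 for TCDD in either line, and DESeq2 called 0 of them. Prdx1 (ENSDARG00000058734) varied within groups: 60.5, 46.0, 31.5 and 27.8 CPM in WT control, 38.6, 34.0, 53.3 and 49.2 in WT TCDD, 32.4, 44.6, 30.2 and 41.1 in slincRosu3 control, and 42.6, 49.7, 41.8 and 44.5 in slincRosu3 TCDD. Its largest value was that of WT control 1. Srxn1 (ENSDARG00000079160) was low, with 1.27 ± 0.418, 1.60 ± 0.222, 1.115 ± 0.146 and 1.16 ± 0.238 CPM in WT control and TCDD, then slincRosu3 control and TCDD, and the groups overlapped (log2 0.33 with TCDD in WT, edgeR adjusted p = 0.792).

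The 16 thioredoxin genes gave no call in edgeR with all 16 libraries either, with medians of -0.041 in WT and 0.001 in slincRosu3 for the log2 fold change with TCDD. Of these 16, 1 had an unadjusted edgeR p under 0.05 in WT and 2 in slincRosu3, and DESeq2 called 0 in both. Between the lines DESeq2 called 1 of them over both treatments, txnl1, a thioredoxin-like gene (log2 -0.31 and adjusted p = 0.0544 in edgeR). Txnrd3 (ENSDARG00000100374), a thioredoxin reductase gene, had 145, 111, 92.1 and 76.2 CPM in WT control, 87.2, 91.5, 112 and 121 in WT TCDD, 88.9, 122, 80.2 and 106 in slincRosu3 control, and 86.2, 110, 88.9 and 87.2 in slincRosu3 TCDD. As for prdx1, WT control 1 held the largest value, and WT control 4 the smallest. Txn (ENSDARG00000044125), a thioredoxin gene and the second lowest fold change with TCDD in WT (log2 -0.29, edgeR adjusted p = 0.69), had 23.3, 25.2, 26.6 and 40.9 CPM in WT control and 26.8, 22.9, 24.9 and 19.95 CPM in WT TCDD. The value of WT control 4 lay far above the other 3 controls. In slincRosu3 its means were 27.9 ± 5.44 CPM in control and 31.8 ± 1.91 CPM with TCDD, and with TCDD all slincRosu3 libraries were above all WT libraries (log2 0.43, edgeR adjusted p = 0.221).

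Wide swings between libraries of a group were seen in the pair of thioredoxin-interacting protein genes, which encode inhibitors of thioredoxin that respond to glucose in mammals. They are named because of their spread, after their values were seen. Txnipa (ENSDARG00000036107) had 168, 194, 176 and 416 CPM in WT control, 297, 271, 186 and 169 in WT TCDD, 211, 156, 244 and 316 in slincRosu3 control, and 446, 260, 324 and 383 in slincRosu3 TCDD. Txnipb (ENSDARG00000070000) had 18.9, 30.5, 27.2 and 65.6 CPM in WT control, 34.9, 30.1, 25.9 and 26.2 in WT TCDD, 25.2, 19.7, 30.9 and 36.6 in slincRosu3 control, and 45.1, 32.2, 44.5 and 48.2 in slincRosu3 TCDD. For both genes replicate 4 was the highest library of each control group, all groups overlapped, and no comparison of the 16 libraries passed. The standard deviation within groups on the log2 scale was 0.456 for txnipa and 0.454 for txnipb, against a median of 0.197 over the 63 defence genes and 0.241 over all genes tested. It was larger for hmox2b (1.01), txnrd2.2 (0.778), gstp2 (0.727) and sod3b (0.499), whose counts were low. Skeletal muscle markers (7 of 7 listed, all detected in 16 libraries) summed to 64040 CPM in WT control 4 and to 52670 CPM in slincRosu3 control 4, against 41950 to 49060 CPM in the other control libraries. Epidermis and ionocyte markers (9 of 9 listed) summed to 41240 and 32620 CPM there, against 20790 to 29540 CPM in the other control libraries. Both libraries were also the highest of their control group for erythrocyte, liver, yolk syncytial layer, hatching gland and intestine markers. For myeloid markers neither was the highest, and for lens markers only slincRosu3 control 4 was. Liver markers (8 of 10 listed, all detected) summed to 1794 CPM in WT control 1 and to 2868 to 4439 CPM in the other 15 libraries. Yolk syncytial layer markers (6 of 6 listed, 5 detected in all 16 libraries) were likewise lowest there, at 4936 CPM against 7971 to 10180 CPM. The part of these tissues in the spread of txnipa, txnipb, prdx1 and txnrd3 was not tested.

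**Figure D5:**
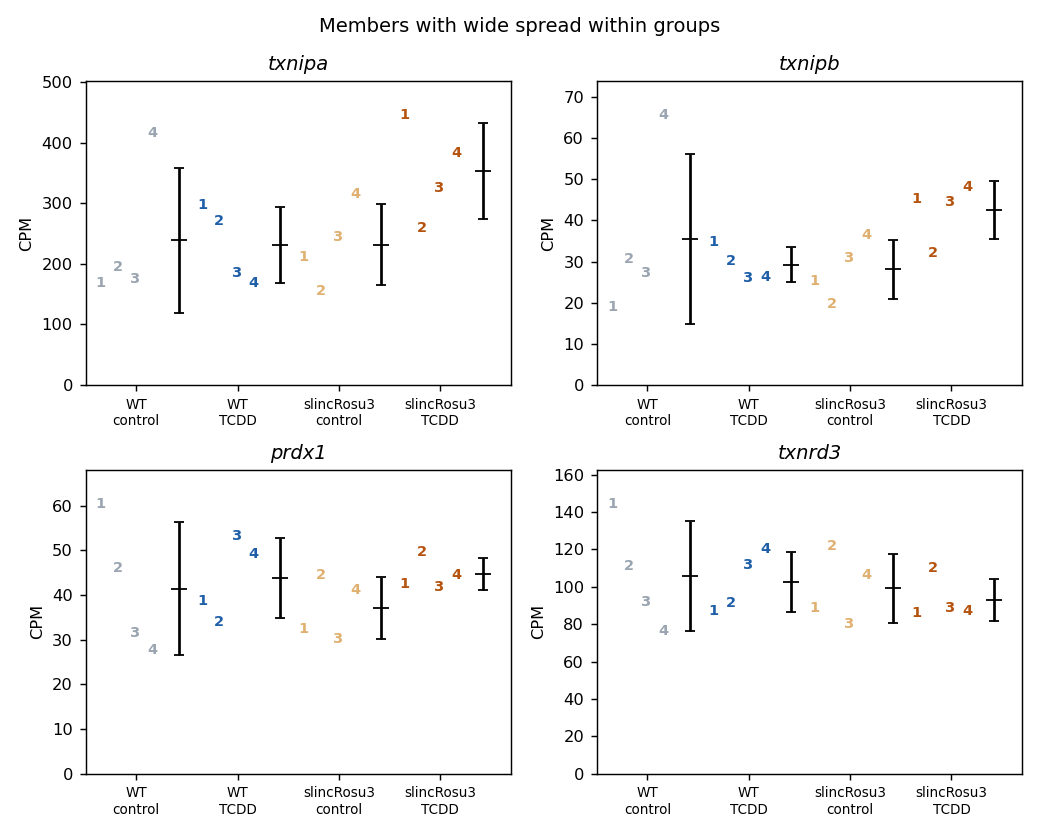
CPM (vertical axes, from 0) of 4 thioredoxin and peroxiredoxin genes with wide spread within groups, by group; digits are the replicate numbers of single libraries and black bars are mean ± SD over 4 libraries. WT control 4 stands highest for txnipb at 65.6 CPM, and WT control 1 stands highest for prdx1 at 60.5 CPM and for txnrd3 at 145 CPM.

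Catalase and the superoxide dismutases, which remove hydrogen peroxide and superoxide, gave no call. Cat (ENSDARG00000104702) had 61.4 ± 6.29, 64.7 ± 3.11, 58.4 ± 5.37 and 56.6 ± 5.15 CPM in WT control and TCDD, then slincRosu3 control and TCDD. Sod1 (ENSDARG00000043848), the cytosolic dismutase, had 16.6 ± 1.38, 16.7 ± 2.77, 15.2 ± 0.776 and 14.3 ± 1.50 CPM in the same order. Their groups overlapped in every pairwise comparison. For cat the 95% interval of the log2 fold change with TCDD was -0.13 to 0.28 in WT, and for sod1 the log2 fold change there was 0.0050 (SE 0.117). None of the 5 genes (cat, sod1, sod2, sod3a and sod3b) had an unadjusted edgeR p under 0.05 for TCDD in either line, and DESeq2 called 0.

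Among the heme oxygenase genes, hmox1a responded to TCDD in slincRosu3. Hmox1a (ENSDARG00000027529), the inducible enzyme that breaks down heme, had 21.8, 19.4, 16.5 and 23.0 CPM in WT control and 32.7, 25.0, 26.2 and 27.9 CPM in WT TCDD. In slincRosu3 it had 11.9, 14.4, 11.3 and 19.7 CPM in control and 44.9, 23.9, 31.8 and 27.9 CPM with TCDD. Treated libraries lay above controls in both lines, slincRosu3 TCDD 1 was the highest, and slincRosu3 control was lower on average than WT control with overlap. It rose 2.24-fold in slincRosu3 (log2 1.17, SE 0.193, edgeR adjusted p = 0.00667) and 1.76-fold over both lines (log2 0.82, edgeR adjusted p = 0.00366). In WT it did not pass (log2 0.47, SE 0.19, edgeR adjusted p = 0.538). The call in slincRosu3 held when any of the 16 libraries was left out (log2 0.96 to 1.36, edgeR adjusted p up to 0.0473). Erythrocyte markers (8 of 10 listed, all detected) summed to 1824 to 2916 CPM in WT control and 1566 to 3205 CPM in WT TCDD. They summed to 1505 to 2621 CPM in slincRosu3 control and 1739 to 3074 CPM in slincRosu3 TCDD. Within slincRosu3 TCDD the sum was highest in library 1 and lowest in library 3, the libraries with the highest and second highest hmox1a. The part of these markers in the result was not tested. Hmox1a lies on the chromosome of sox9b in GRCz12tu with 939 genes between them.

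Nqo1 (ENSDARG00000010250), a quinone reductase that is a standard Nrf2 target in mammals, had 42.9 ± 1.86 and 50.7 ± 6.27 CPM in WT control and TCDD, and 41.7 ± 3.66 and 49.9 ± 7.14 CPM in slincRosu3. Its groups overlapped and neither line passed (log2 0.24 and 0.26, edgeR adjusted p = 0.605 and 0.883). Hmox2b (ENSDARG00000078452), a copy of the constitutive heme oxygenase gene, had the second lowest fold change in slincRosu3 (log2 -0.69, SE 0.625, edgeR adjusted p = 0.999). Its CPM of 1.22, 2.76, 1.32 and 0.174 in slincRosu3 control and 0.656, 1.27, 0.975 and 0.498 in slincRosu3 TCDD overlapped, and slincRosu3 control 2 and 4 were the extremes.

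Whether the response to TCDD differed between the lines was tested as the difference of the log2 fold changes, slincRosu3 minus WT. No defence gene and no gene of the 20907 tested (0%) passed after adjustment in edgeR. Before adjustment, 5 of 63 defence genes and 899 genes in all (4.3%) had an edgeR p under 0.05, and 0 genes passed in DESeq2. The 5 were gstm.3, gsto1, hmox1a, txnipb and txndc11, an endoplasmic reticulum protein with thioredoxin domains. For gstm.3 the difference was -0.84 (SE 0.189, unadjusted p = 0.00035 and adjusted p = 0.946 in edgeR), from a log2 fold change of -0.71 in slincRosu3 and of 0.13 in WT. For hmox1a it was 0.69 (SE 0.27, 95% interval 0.12 to 1.26, edgeR adjusted p = 0.996). For gstp1 it was 0.25 (edgeR adjusted p = 0.996). Calls of hmox1a and gstp1 in slincRosu3 and not in WT therefore do not show a different response. The 8 listed AHR target genes, all detected, summed to 1565 to 2082 CPM in WT TCDD and to 2626 to 2967 CPM in slincRosu3 TCDD, against 128 to 171 CPM in the controls. Cyp1a, which is 1 of them, made up most of the sum in every TCDD library. It had 856 to 1231 CPM in WT TCDD and 1655 to 1931 CPM in slincRosu3 TCDD. The part of the AHR targets in the differences of response was not tested.

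The pathway around these genes was read from 120 further genes listed by role, of which 110 were in the table and 108 were tested. With TCDD, none passed in edgeR in WT (3 at an unadjusted p under 0.05; DESeq2 called 1, noxo1a) or in slincRosu3 (14 unadjusted; DESeq2 called 1, chac1). Over both lines 1 of the 108 passed in edgeR, where 0.804% of all genes did, which is close to the share of the list. The gene was noxo1a (ENSDARG00000041294), an organiser of a superoxide-producing NADPH oxidase, which rose 1.78-fold (log2 0.83, edgeR adjusted p = 0.0192). It had 4.60, 4.34, 3.43 and 3.17 CPM in WT control and 8.71, 12.5, 5.64 and 5.98 CPM in WT TCDD, against 3.62, 2.50, 4.16 and 2.72 CPM in slincRosu3 control and 4.77, 4.52, 4.99 and 5.32 CPM in slincRosu3 TCDD. Its treated libraries were above the controls within each line, and the call was lost without WT control 3, slincRosu3 control 2 or slincRosu3 TCDD 4 (edgeR adjusted p up to 0.0541). Of 22 partners, relatives and regulators of Nrf2, 0 passed in edgeR in either line, with 0 in WT and 2 in slincRosu3 at an unadjusted p under 0.05, and 0 passed in DESeq2. Unadjusted edgeR p-values under 0.05 came to 2.78% of the 108 genes and 8.02% of all genes in WT, and to 13% and 4.86% in slincRosu3. The 108 genes had median log2 fold changes with TCDD of 0.0069 in WT and 0.048 in slincRosu3.

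Between the lines, 3 of the 108 passed without TCDD (1.54% of all genes did), 4 with it (1.86% of all genes) and 10 over both treatments, 6 higher in slincRosu3 and 4 lower (5.45% of all genes). Over both treatments the smallest p-values were those of microsomal glutathione transferase genes. Mgst3a (ENSDARG00000102744), a membrane-bound transferase with peroxidase activity, had 38.2, 27.0, 34.6 and 32.9 CPM in WT control and 30.9, 32.8, 31.8 and 34.01 CPM in WT TCDD. The mutant line had 15.95, 18.5, 19.95 and 22.9 CPM in control and 17.3, 22.6, 23.3 and 19.3 CPM with TCDD. Mgst2 (ENSDARG00000071345) had 25.2, 18.9, 21.2 and 19.3 CPM in WT control, 16.2, 22.2, 25.4 and 17.6 in WT TCDD, 11.8, 10.7, 11.1 and 13.7 in slincRosu3 control, and 10.9, 12.2, 12.8 and 12.2 in slincRosu3 TCDD. For both genes all 8 slincRosu3 libraries lay below all 8 WT libraries. Without TCDD mgst3a was 1.72-fold lower (edgeR adjusted p = 0.00339) and mgst2 1.79-fold lower (edgeR adjusted p = 0.00475) in slincRosu3. With TCDD they were 1.57-fold and 1.69-fold lower (edgeR adjusted p = 0.0125 and 0.00842), and the call of mgst3a was lost without slincRosu3 TCDD 1 (edgeR adjusted p = 0.0548).

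Selenom (ENSDARG00000051957), a selenoprotein of the endoplasmic reticulum, was 1.48-fold lower in slincRosu3 with TCDD (edgeR adjusted p = 0.0325) and 1.45-fold lower over both treatments (edgeR adjusted p = 0.00171), with 24.4 ± 3.10 CPM in WT TCDD and 16.4 ± 1.29 CPM in slincRosu3 TCDD. Msrb2 (ENSDARG00000018459), a mitochondrial methionine sulfoxide reductase, was 1.70-fold higher in slincRosu3 without TCDD (30.0 ± 3.95 CPM in WT and 51.1 ± 5.17 CPM in slincRosu3, edgeR adjusted p = 0.049). That call lay at the threshold: it was lost on leaving out any 1 of 12 of the 16 libraries, the exceptions being WT TCDD 3 and 4 and slincRosu3 TCDD 1 and 3. Cybb, the gp91phox subunit of the phagocyte oxidase, was also among the 10, 1.31-fold higher over both treatments (edgeR adjusted p = 0.0307). Its means were 5.50 and 4.61 CPM in WT control and TCDD, and 6.44 and 6.75 CPM in slincRosu3 control and TCDD. The summed myeloid markers given above were higher in slincRosu3 control than in WT control, with overlap between the lines under TCDD. In slincRosu3 they were lower with TCDD than in control. The part of myeloid cells in the cybb result was not tested.

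In the authors' deposited table, 2 defence genes were past an adjusted p of 0.05 for TCDD in WT, nfe2l2b (log2 1.57, adjusted p = 8.51e-13) and gstp1 (log2 0.43, adjusted p = 0.0238). The authors' deposited table has 3 past it for slincRosu3 against WT without TCDD, gsta.2, gstm.3 and gstt1b. With TCDD, the authors' deposited table has 5: gpx3, gsta.2, gstt1a, gstt1b and nfe2l2a. The edgeR fit gave 1, 3 and 3 calls for these comparisons.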

How the data were processed

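RNA of whole embryos was sequenced, and raw counts per gene were deposited by the authors for 16 libraries in 4 groups. The counts combine reads 1 and 2, with zero and low genes removed, per the name of the deposited count table. The column of 1 library as deposited by the authors was treated as estimated counts, since 1 of its values is not whole, and was rounded. The submitters' processing notes name HISAT2, STAR, DESeq2 and the build GRCz11; versions, counting tool and strand setting are not given in the sources used here, so reads of a gene and of one overlapping it on the other strand cannot be separated. The log2 fold changes and p-values that the authors deposited, from DESeq2 per the submitters' processing notes, were used only for comparison. Another 48 columns of per-sample values were not used.

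Contrasts were tested two-sided in edgeR 4.0.16 under R 4.3.3 by its quasi-likelihood method, on TMM-scaled counts of the 20907 genes that filterByExpr kept, and p-values were adjusted over all of them (Benjamini-Hochberg, threshold 0.05). The fit was planned for 6 groups, and 4 had columns, leaving 12 residual degrees of freedom. Standard errors are the log2 fold change divided by the root of F. The script was tested on simulated data. Alternatives were DESeq2 1.42.0 and its size factors, no filter, the compared groups only, a replicate block, each library left out, and 4 libraries left out. Libraries of a group were compared by chi-square, and none of 24 pairs was alike within sampling noise (lowest chi-square per degree of freedom 3.55). Symbols are the authors'; 4 IDs that carry a matching name only in a gene name table are not members. RefSeq genes of GRCz12tu served for gene order only (61 of 64 members matched).

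The members and gene lists were chosen with earlier results of these data known. Values by library, or as group means, are given for members past the threshold in any contrast, a fixed set of 16 members, the 2 highest and 2 lowest fold changes with TCDD per line, cyp1a, and up to 3 pathway genes per contrast. Gsta.1, txnipa and txnipb are marked as chosen after their values were seen. Other genes were named because of their results, among them txnl1, txndc11, chac1, cybb, msrb1a, msrb3, slc7a11 and selenow2a. The values of 1 pathway gene are not reported here.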

Additional observations from a re-analysis of the deposited data

Results flagged for a closer look

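In groups of 4 libraries, a value was marked where its gap to the nearest other value as a share of the range of the group exceeded Dixon's 95% limit. Chance marks about 1 in 20 groups, and 7 of the 100 groups looked at over 25 defence genes were marked. Gstp2 had 0.168 CPM in WT control 1, against 0.732 to 0.832 CPM in the other WT control libraries. Gstt1a had 61.0 CPM in slincRosu3 control 4, against 46.6 to 48.9 CPM in the others of its group. Gstt1b had 18.8 CPM in WT TCDD 2, against 17.8 to 17.9 CPM. Keap1b had 36.3 CPM in slincRosu3 control 4, against 26.2 to 27.6 CPM. Nqo1 had 47.1 CPM in slincRosu3 control 3, against 39.1 to 40.3 CPM. Sod1 had 18.7 CPM in WT control 1, against 15.7 to 16.1 CPM. Txnrd3 had 110 CPM in slincRosu3 TCDD 2, against 86.2 to 88.9 CPM in the other libraries of its group.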

How the results depend on the processing

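Of 1414 values of 65 gene results under alternatives, 1330 kept direction and call, 46 lost the call, 6 gained it and 32 changed sign, none of these called. Many of the 65 results were not called in the main fit and so could not lose a call. Most of the values come from fits that left out 1 library and share the other libraries with the main fit. The count of 1330 is therefore no measure of how stable the calls were. With DESeq2, genes called were 147 (TCDD in WT), 157 (TCDD in slincRosu3), 266 (TCDD over both lines), 499 (lines, control) and 674 (lines, TCDD), and members called were 2 in WT (gstp1 added) and 5 between the lines with TCDD. With only the compared groups, 26 genes were called for TCDD in WT and 149 between the lines in control. Without the 4 libraries that stood apart, genes called were 327, 170, 486, 604 and 697 in that order, and 20 for the difference of responses. Members called were 2 in WT, 6 between the lines in control and 5 with TCDD. WT TCDD then held only replicates 1 and 2.

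Whether replicate numbers mark shared clutches or days is not given, and they were not taken as pairs, since not every same-numbered pair had deviations correlated above 0.1: 16 of 24 did (range -0.276 to 0.676). This cut-off cannot decide whether the numbers share a batch, since correlations of differently numbered pairs are not given here. With the replicate block, 2 members were called for TCDD in WT (gstp1 added), and between the lines gstm.3 was lost in control, gstt1a was added with TCDD and keap1b over both treatments. Genes called rose with the block from 68 to 80 (TCDD in WT), 80 to 96 (slincRosu3) and 1140 to 1411 (lines, both treatments).

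With 1 library left out, genes called ranged from 46 to 76 (TCDD in WT), 46 to 102 (slincRosu3), 112 to 201 (both lines), 176 to 342 (lines, control), 175 to 491 (lines, TCDD), 857 to 1371 (both treatments) and 0 to 0 (difference). Members called ranged from 1 to 1, 3 to 5, 4 to 4, 2 to 3, 1 to 4, 5 to 7 and 0 to 0 in that order.

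Log2 fold changes near 0 that changed sign: for TCDD in WT without the 4 libraries, gsr -0.014, keap1b -0.22, prdx1 -0.33 and sod1 -0.14. Sod1 was also -0.0035 with DESeq2 size factors, -0.00094 with the replicate block, -0.0054 with the compared groups and -0.00057 with DESeq2. On leaving out 1 library, WT ranges were -0.090 to 0.035 (gclc), -0.12 to 0.095 (gclm), -0.13 to 0.061 (gss), -0.10 to 0.11 (keap1b), -0.072 to 0.32 (prdx1), -0.11 to 0.082 (sod1) and -0.18 to 0.14 (txnrd3). In slincRosu3 they were -0.10 to 0.0093 (cat), -0.072 to 0.091 (gclm), -0.023 to 0.20 (srxn1) and -0.18 to 0.020 (txnrd3). The cause was not tested. Depth limits gstp2, gsto1, hmox2b and srxn1, at about 1 CPM.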

Other observations

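Glutathione peroxidase and thioredoxin genes that carry such a name only in the gene name table were not members. Of these, the gene named TXN there (zgc:56493 in the authors' annotation) had group means of 123, 102, 104 and 102 CPM in WT control and TCDD, then slincRosu3 control and TCDD. Gpx9 had 12.4, 11.4, 11.7 and 9.78 CPM, gpx1b had 2.45, 2.53, 1.73 and 1.57 CPM, and gpx2 had 0.871, 0.927, 0.688 and 0.764 CPM in the same order.

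Of 21 tested genes listed as methionine sulfoxide reductases, selenoprotein genes and other peroxide genes, 6 differed by line over both treatments, 5 higher and 1 lower in slincRosu3. This list had the most calls of the pathway lists, and is described for that reason. The others had 2 of 25, 2 of 15, 0 of 22 and 0 of 25, which made 10 of 108 in all. The lists were chosen with earlier results of these data known, so the count is no evidence about the family. Of the methionine sulfoxide reductases, which repair oxidised methionine, msrb1a was 1.30-fold, msrb2 1.57-fold and msrb3 1.21-fold higher in slincRosu3 (edgeR adjusted p = 0.0113, 0.00631 and 0.0377). For each of them the libraries of the lines overlapped, and msra, also tested, gave no call. Slc7a11, the cystine importer that feeds glutathione synthesis, was 1.32-fold lower (edgeR adjusted p = 0.0334), and selenow2a, a small selenoprotein gene, was 1.19-fold higher (edgeR adjusted p = 0.0333). Of all genes tested, 5.45% passed in this comparison.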
